A study of Homo sapiens with 12 samples.

Results

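The A-, B- and E-type cyclins, the kinases CDK1 and CDK2 that they activate, and the CDC25 phosphatases that switch these kinases on form the engine of S phase and mitosis. The 10 genes described here are CCNA2, CCNB1, CCNB2, CCNE1, CCNE2, CDK1, CDK2, CDC25A, CDC25B and CDC25C, taken by symbol from a table of 62069 genes. All 10 were among the 15284 genes that passed edgeR's filter for expression. RNA-seq was performed on IMR90 ER:RAS cells, human lung fibroblasts in which a RAS fused to the hormone-binding domain of the estrogen receptor is switched on by 4-hydroxytamoxifen (4OHT), after which the cells enter oncogene-induced senescence (OIS). There were 4 groups of 3 libraries, all at passage 13 and labelled day 5: vector (no 4OHT), vector/4OHT (100 nM 4OHT), shXPO7_3/4OHT and shXPO7_5/4OHT (100 nM 4OHT with an shRNA against the exportin XPO7). All libraries are recorded with 7 days of culture and a medium change on day 4. The sample labels state whether cells were induced and which shRNA they carried, and the control vector is taken from the study. Every group shares the ER:RAS transgene, and nothing in the sources used here says whether the 3 libraries of a group were grown apart, so each p-value reflects library-to-library spread only, part or all of which may be technical.

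Cyclin E with CDK2 acts at the entry to S phase, cyclin A with CDK2 and then CDK1 carries S phase and G2 forward, and cyclin B with CDK1 drives mitosis. The inhibitory phosphates that WEE1 and PKMYT1 put on CDK1 and CDK2 are taken off by CDC25A, CDC25B and CDC25C. Transcription of the early genes of this group is tied to E2F sites, and that of the late genes to the CHR (cell cycle genes homology region) bound by the DREAM and MuvB complexes and to CCAAT boxes bound by NF-Y. Arrested cells, senescent ones included, generally hold little mRNA of the late genes.

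The sequences that these genes carry at their start sites are shown first. Their part in the changes on induction was not tested. RefSeq promoter windows (GRCh38.p14, 250 bases before to 50 after a transcript start) were matched by symbol for 8 of the 10 genes, in 15 windows, and CCNE2 and CDK2 are named only. The letters TTTGAA or TTCGAA (CHR), searched on both strands, were in windows of 4 of the 8 genes, namely CCNB2, CDK1, CDC25C and CDC25B, that is in 6 of the 15 windows (40%), beside 16.4% of all 35116 windows. A gene can have several windows (4 each for CDC25B and CDC25C) and these can overlap, so the windows of one gene are not independent. In 30-base stretches with the match in capitals, written 5′ to 3′ on the gene's strand, they read as follows.
CCNB2 (CHR, GRCh38.p14 chr15:59105105-59105134, plus strand): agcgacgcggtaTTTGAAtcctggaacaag
CDK1 (CHR, GRCh38.p14 chr10:60778453-60778482, plus strand): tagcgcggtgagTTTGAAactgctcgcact
CDC25C (CHR, GRCh38.p14 chr5:138331817-138331846, minus strand): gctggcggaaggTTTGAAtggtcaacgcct
CDC25B (CHR, GRCh38.p14 chr20:3796260-3796289, plus strand): ctgctgttatttTTCGAAtatataaggagg

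The letters CCAAT, on either strand, were in windows of 7 of the 8 genes, the exception being CCNE1, and in 10 of the 15 windows (66.7%), beside 34.6% of all windows. They are shown for CCNB1, whose level stayed the highest of the cyclins, and for CCNA2, where the capitals read ATTGG because the match lies on the other strand.
CCNB1 (CCAAT, GRCh38.p14 chr5:69167051-69167080, plus strand): gaccggcagccgCCAATgggaagggagtga
CCNB1 (CCAAT, GRCh38.p14 chr5:69167083-69167112, plus strand): gccacgaacaggCCAATaaggagggagcag
CCNA2 (CCAAT, GRCh38.p14 chr4:121823922-121823951, minus strand): gcgagcgctttcATTGGtccatttcaatag
CCNB2 held 4 matches. The 182 bases before the gene's first annotated base in GENCODE release 29 carry 3 of them (capitals), and are printed because CCNB2 was among the genes that fell most.
CCNB2 (GRCh38.p14 chr15:59104896-59105077, plus strand): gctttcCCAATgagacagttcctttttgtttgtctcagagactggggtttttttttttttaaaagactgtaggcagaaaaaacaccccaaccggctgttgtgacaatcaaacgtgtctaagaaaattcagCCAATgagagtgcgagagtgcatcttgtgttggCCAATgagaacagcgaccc

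E2F letters (TTTCCCGC, TTTGGCGC, TTTCGCGC or TTTGCCGC on either strand) were in windows of CDC25A and CDK1, 3 of the 15 windows (20%), beside 3.31% of all windows.
CDC25A (E2F, GRCh38.p14 chr3:48188443-48188472, minus strand): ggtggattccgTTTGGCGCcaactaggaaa
CDK1 (E2F, GRCh38.p14 chr10:60778339-60778368, plus strand): tttcctctttcTTTCGCGCtctagccaccc
CCNE1 had none of these 3 motifs in its window. The GC box GGGCGG was in windows of all 8 genes, 13 of the 15 windows (86.7%), beside 45% of all windows, and the 157 bases before CCNE1's first annotated base hold 5 matches on one strand or the other (capitals).
CCNE1 (GRCh38.p14 chr19:29811741-29811897, plus strand): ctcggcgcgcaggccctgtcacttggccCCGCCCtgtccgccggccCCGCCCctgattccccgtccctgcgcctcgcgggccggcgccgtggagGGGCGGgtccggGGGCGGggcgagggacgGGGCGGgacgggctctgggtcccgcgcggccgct
A match is a run of letters and not a measured binding site. Only the letters given were searched, so a gene without a match may still carry another spelling of the motif. TTCGAA reads the same on both strands, and a CCAAT or E2F match can share bases with a GC box.

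The genes lie apart in the genome. In the GRCh38 annotation of GENCODE release 29, CCNA2 is on chromosome 4 (121816444 to 121823933, minus strand), CCNB1 on chromosome 5 (69167010 to 69178245, plus strand) and CCNB2 on chromosome 15 (59105078 to 59125045, plus strand). CCNE1 is on chromosome 19 (29811898 to 29824308, plus strand) and CCNE2 on chromosome 8 (94879770 to 94896678, minus strand). CDK1 is on chromosome 10 (60778331 to 60794852, plus strand) and CDK2 on chromosome 12 (55966769 to 55972784, plus strand). CDC25A is on chromosome 3 (48157146 to 48188402, minus strand), CDC25B on chromosome 20 (3786772 to 3806121, plus strand) and CDC25C on chromosome 5 (138285265 to 138338355, minus strand). All are protein-coding. Whether the counting used strand is not given in the sources used here, and reads from a gene on the other strand could be included for CCNA2 (EXOSC9), CCNB2 (AC092757.3), CCNE2 (INTS8, NDUFAF6, AC087752.1 and AC087752.4), CDK2 (PMEL and AC025162.1), CDC25A (NDUFB1P1, RNU7-128P and SNRPFP4, each with 0 counts in every library) and CDC25C (FAM53C). CCNB1, CCNE1, CDK1 and CDC25B have none there. CDC25C had at least 47 counts per library where FAM53C had at least 2267, and CCNE2 had at least 28 where INTS8 had at least 977. CDK2 had at least 2118 counts where PMEL had at most 236.

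The libraries held 28534141 to 60397769 counts. All 8 fibroblast markers were above 1 CPM (counts scaled to library size, with TMM factors) in every group, with a summed level of 16696 to 27880 CPM. KRT5 (epithelial) and PECAM1 and CDH5 (endothelial) were at 0, the 5 epithelial markers summed to 37.1 to 43.2 CPM in vector and 3.20 to 4.89 CPM in the induced groups, the 5 endothelial markers to 8.94 to 15.05 CPM, and the 5 blood markers to at most 0.198 CPM. The part of these differences in the results was not tested. XPO7, the targeted gene, was 127 to 144 CPM in vector/4OHT, 26.4 to 28.7 CPM in shXPO7_3/4OHT and 50.8 to 54.0 CPM in shXPO7_5/4OHT, log2 fold changes of -2.30 and -1.39. Libraries also differed in GC-rich transcripts: across genes, Spearman's rho of a library's deviation from its group mean with transcript GC content ran from -0.73 (shXPO7_5/4OHT replicate A) to 0.76 (shXPO7_5/4OHT replicate B). That measure leaves out shifts between groups. Taken against the vector/4OHT mean, rho was 0.63, 0.11 and 0.80 in shXPO7_5/4OHT (replicates T, A and B). It was 0.60, -0.36 and -0.27 in shXPO7_3/4OHT, and -0.19, -0.21 and 0.33 in vector/4OHT. In bulk RNA, fewer cycling cells and less mRNA per cell cannot be told apart.

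In vector, compared per length (CPM per kb of exon), CCNB1 was the most abundant at 44.5 ± 1.96 (SD, n = 3). CCNA2 at 23.6 ± 1.24 and CDC25B at 23.2 ± 1.76 followed and did not differ beyond their spread. CDK2 stood at 16.3 ± 1.11 and CCNB2 at 15.5 ± 0.573, also within their spread, and CDK1 at 11.2 ± 2.64. The least abundant were CDC25A at 4.71 ± 0.292, CCNE1 at 3.99 ± 0.56, CDC25C at 3.45 ± 0.322 and CCNE2 at 2.39 ± 0.866. In vector/4OHT the order changed: CDK2 led at 24.0 ± 0.89 CPM per kb, followed by CCNB1 at 11.4 ± 0.528, CDC25B at 7.76 ± 0.31 and CCNE1 at 4.54 ± 0.175. CCNA2 was at 3.71 ± 0.148, and CCNB2 at 2.36 ± 0.171 and CDC25A at 2.18 ± 0.11 did not differ beyond their spread. CDK1 was at 1.76 ± 0.028, and CDC25C at 0.493 ± 0.097 and CCNE2 at 0.435 ± 0.066 were last and did not differ beyond their spread.

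**Figure D1:**
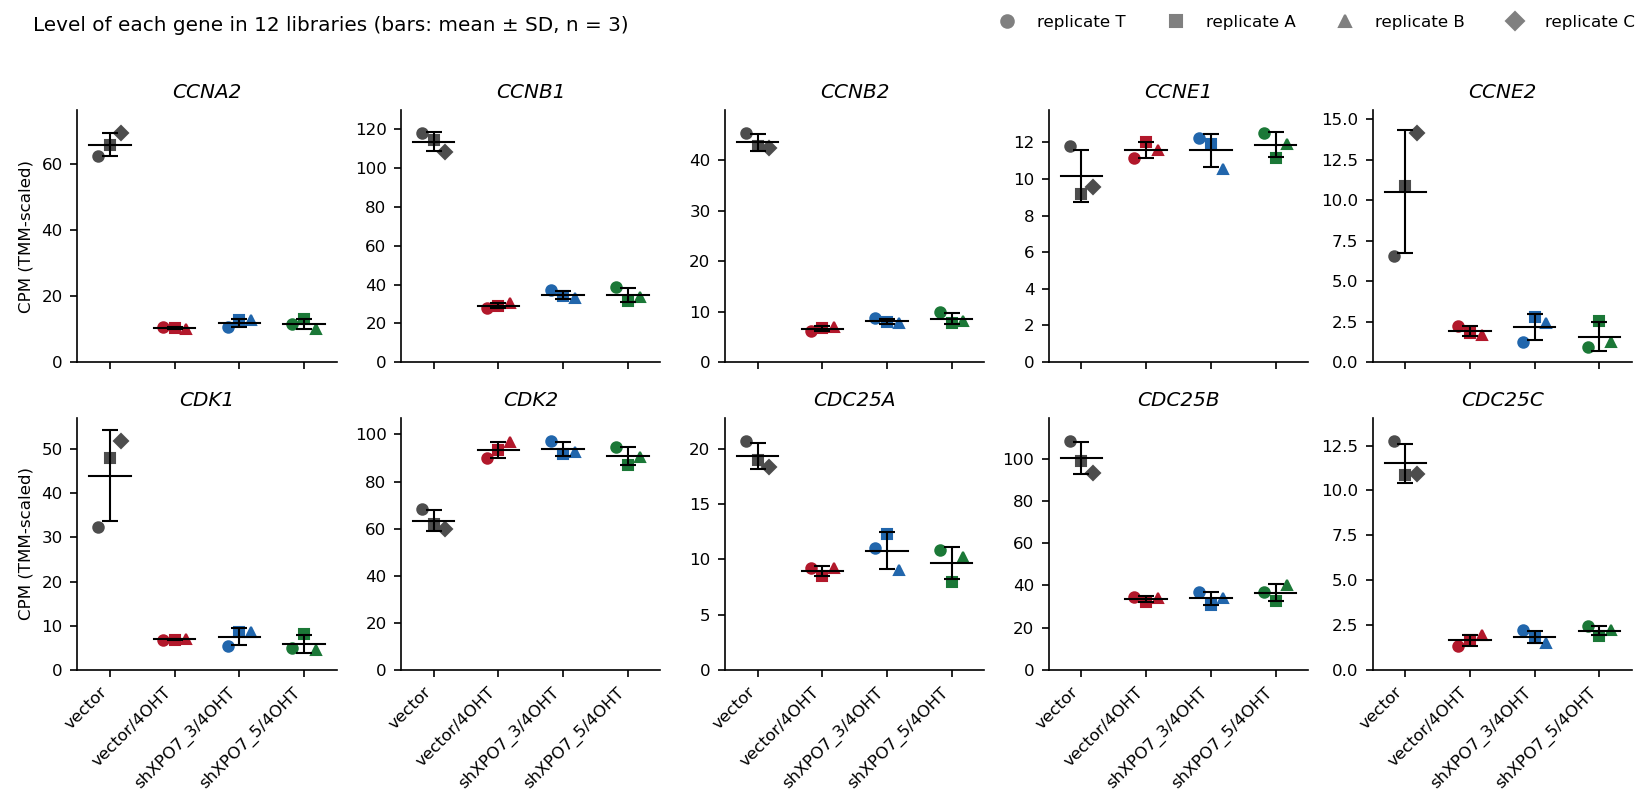
CPM after TMM scaling (y axis, from 0, a scale of its own for each gene) of the 10 genes in the 12 libraries (points, shaped by replicate letter) of 4 groups, with the mean and SD as bars (n = 3). In 8 genes all 3 vector/4OHT libraries lie below all 3 vector libraries, as in 31.4% of all genes tested. CDK2 shows the opposite, as do 31.8% of all genes tested, and CCNE1 overlaps.

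Comparing vector/4OHT with vector asks what induction of RAS by 4OHT did. No group had 4OHT without ER:RAS, so an effect of 4OHT itself cannot be told apart from that of RAS. Of the 10 genes, 8 fell, CDK2 rose and CCNE1 did not pass the test, and the 9 called genes stand beside 50.9% of all genes tested (24.8% called higher and 26.1% lower). The median log2 fold change of the 10 genes was -2.21, and that of all genes tested -0.0068. In each of the 8 genes that fell the 3 vector/4OHT libraries were below the 3 vector libraries, which was so for 31.4% of all genes. The falls were largest in the A and B cyclins, CDK1, CDC25C and CCNE2 and smaller in CDC25A and CDC25B.

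CCNA2, cyclin A2, had 62.5, 66.0 and 69.5 CPM in vector replicates T, A and C and 10.7, 10.5 and 9.93 CPM in vector/4OHT replicates T, A and B. The groups did not overlap, and its log2 fold change was -2.67 (standard error 0.11, edgeR quasi-likelihood adjusted p = 1.35e-09), a 6.36-fold fall. CCNB2, cyclin B2, went from 45.4, 42.8 and 42.5 CPM to 6.07, 6.84 and 6.94 CPM (log2 fold change -2.72, standard error 0.104, edgeR adjusted p = 7.33e-10). CCNB1, cyclin B1, fell less: it had 118, 115 and 108 CPM in vector and 27.8, 28.96 and 30.5 CPM in vector/4OHT. Its log2 fold change was -1.97 (standard error 0.089, edgeR adjusted p = 2.99e-09). Within each library CCNB1 was 2.79 to 2.94 times CCNB2 per length in vector and 4.64 to 5.01 times in vector/4OHT, a log2 difference of 0.75 that no library contradicted (two-sided exact permutation p = 0.1, below which 3 against 3 libraries cannot go).

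CDK1, the kinase of mitosis, had 32.3, 47.9 and 51.9 CPM in vector and 6.83, 6.88 and 7.04 CPM in vector/4OHT. Its log2 fold change was -2.67 (standard error 0.246, edgeR adjusted p = 2.08e-06), with a wider error than that of CCNA2 and vector libraries far apart. The sum of the B cyclins was 4.36 to 7.60 times CDK1 per length in vector and 7.49 to 8.03 times in vector/4OHT, and these overlapped (log2 difference 0.51, exact permutation p = 0.2). CDK2, the kinase of cyclins E and A, rose: it had 68.3, 62.0 and 60.0 CPM in vector and 89.8, 93.4 and 96.7 CPM in vector/4OHT. All 3 induced libraries were higher, and the log2 fold change was 0.56 (standard error 0.069, edgeR adjusted p = 2.79e-05), where 31.8% of all genes had all induced libraries above all vector libraries.

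The E cyclins parted. CCNE1, cyclin E1, had 11.8, 9.16 and 9.55 CPM in vector and 11.1, 12.02 and 11.6 CPM in vector/4OHT, and vector replicate T lay among the induced libraries. The log2 fold change was 0.19 (95% confidence interval -0.04 to 0.42, edgeR adjusted p = 0.158), so a fall of the size seen in the other cyclins was outside the interval. It passed without vector replicate T (log2 fold change 0.31, edgeR adjusted p = 0.0233) and with the offset for GC content and length (0.26, edgeR adjusted p = 0.0068). In these settings 46.5% and 63.7% of all genes were called. CCNE2, cyclin E2, had 6.55, 10.9 and 14.1 CPM in vector and 2.24, 1.81 and 1.69 CPM in vector/4OHT. It fell by 2.46 on the log2 scale (standard error 0.368, edgeR adjusted p = 0.000131). Per length CCNE1 was 1.16 to 3.11 times CCNE2 in vector and 8.56 to 11.8 times in vector/4OHT, a log2 difference of 2.59 (exact permutation p = 0.1).

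Among the phosphatases, CDC25C, which acts at mitotic entry, had 12.8, 10.9 and 10.9 CPM in vector and 1.31, 1.67 and 1.96 CPM in vector/4OHT. Its log2 fold change of -2.79 (standard error 0.169, edgeR adjusted p = 4.44e-08) was the lowest of the 10. CDC25B, which starts the activation of CDK1 in G2, had 108, 99.0 and 93.5 CPM and then 34.4, 31.9 and 34.1 CPM, a log2 fold change of -1.58 (standard error 0.099, edgeR adjusted p = 5.86e-08). CDC25A, which acts from the start of S phase, fell least, from 20.7, 19.0 and 18.4 CPM to 9.26, 8.47 and 9.24 CPM. Its log2 fold change was -1.11 (standard error 0.13, edgeR adjusted p = 1.75e-05). Per length CDC25A was 1.32 to 1.42 times CDC25C in vector and 3.83 to 5.73 times in vector/4OHT, with no overlap (log2 difference 1.72, exact permutation p = 0.1).

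**Figure D2:**
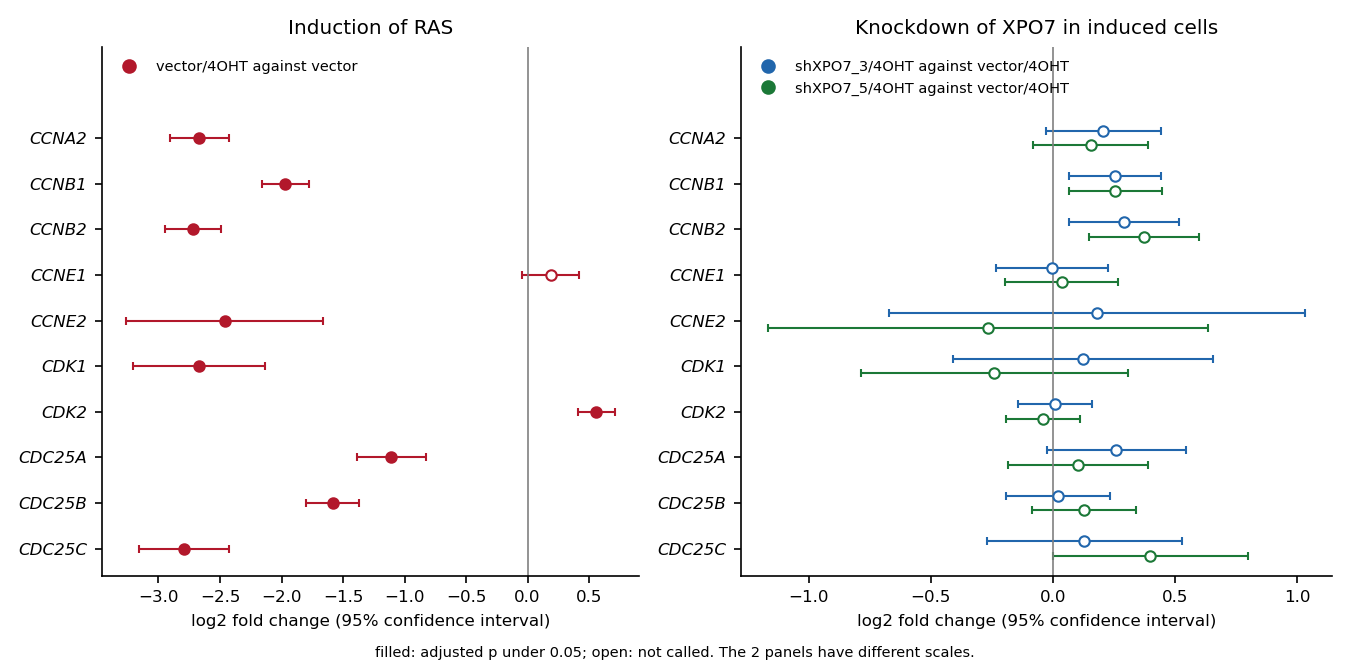
Log2 fold change (x axis) of each gene with its 95% confidence interval from edgeR, on the left for vector/4OHT against vector and on the right for each shRNA against vector/4OHT; filled points passed an adjusted p of 0.05. On the left 9 points are filled and span -2.79 to 0.56, on the right none is filled and all lie between -0.27 and 0.40, on a finer scale.

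The changes were unequal, and the makeup of the family was compared. The E cyclins were 6.74% to 7.80% of the summed A, B and E cyclin level per length in vector and 21.6% to 22.6% in vector/4OHT, 15.1 percentage points higher and without overlap (exact permutation p = 0.1, the smallest 3 against 3 libraries allow). CDK2 was 53.9% to 68.1% of the 2 kinases in vector and 93.0% to 93.3% in vector/4OHT, 33.6 points higher and also without overlap. Per kb, the group means of CCNA2, CCNB1 and CCNB2 fell from 23.6, 44.5 and 15.5 CPM to 3.71, 11.4 and 2.36 CPM. CCNE1 went from 3.99 to 4.54 CPM and CCNE2 from 2.39 to 0.435 CPM. The summed E cyclin level was 0.349 to 0.452 times that of CDK2 in vector and 0.199 to 0.214 times in vector/4OHT. CDC25B was 73.7% to 74.4% of the 3 phosphatases in vector and 73.6% to 75.1% in vector/4OHT, which overlapped (difference 0.334 points, exact permutation p = 0.7). That difference was -0.55 points without division by length and 2.12 points with the longest transcript as the length.

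**Figure D3:**
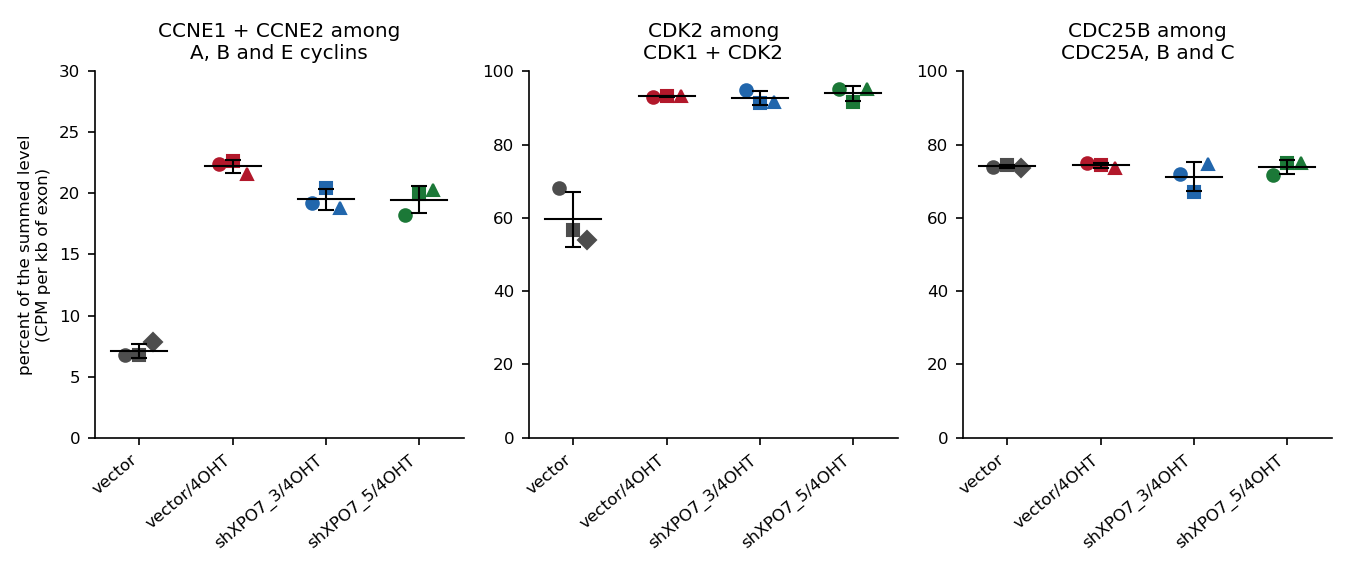
Share in percent (y axis from 0, to 30 in the first panel and 100 in the others) of the summed level per kb of exon that is CCNE1 and CCNE2 among the A, B and E cyclins, CDK2 among CDK1 and CDK2, and CDC25B among the CDC25 phosphatases; points are libraries shaped by replicate letter as in the plot of levels, bars the mean and SD (n = 3). In vector/4OHT the first 2 shares have means of 22.2% and 93.2%, above every vector library, and the third has group means of 71.2% to 74.4%.

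Comparing each shRNA with vector/4OHT asks whether depletion of XPO7 moved these genes in induced cells. No member was called with either shRNA, where 0.124% of all genes were called with shXPO7_3 and 0.589% with shXPO7_5. At an unadjusted p under 0.05 edgeR gave 2 of 10 genes with each, CCNB1 and CCNB2, beside 6.41% and 21.6% of all genes. DESeq2 called 0 with either. The 95% confidence intervals with shXPO7_3 ran from -0.67 to 1.03 on the log2 scale for CCNE2 and from -0.41 to 0.65 for CDK1, and lay between -0.27 and 0.54 for the other 8. With shXPO7_5 they ran from -1.17 to 0.63 for CCNE2 and from -0.79 to 0.30 for CDK1, and lay between -0.20 and 0.80 for the other 8. By their estimates, 9 of 10 were above vector/4OHT with shXPO7_3 (median 0.15) and 7 of 10 with shXPO7_5 (median 0.11), with medians of all genes of -0.0031 and 0.0058. These 2 comparisons share the vector/4OHT libraries.

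CCNB2 had 6.07, 6.84 and 6.94 CPM in vector/4OHT, 8.70, 7.94 and 7.68 CPM (replicates T, A and B) in shXPO7_3/4OHT, and 9.87, 7.79 and 8.08 CPM in shXPO7_5/4OHT. All 6 knockdown libraries were above all 3 vector/4OHT libraries. The log2 fold changes were 0.29 (edgeR adjusted p = 0.541) and 0.37 (edgeR adjusted p = 0.117), well short of the fall of 2.72 on induction. CCNB1 showed the same separation, with 27.8, 28.96 and 30.5 CPM in vector/4OHT, 36.9, 34.1 and 32.9 CPM in shXPO7_3/4OHT and 38.9, 31.7 and 33.5 CPM in shXPO7_5/4OHT. Its log2 fold changes were 0.25 (edgeR adjusted p = 0.519) and 0.26 (edgeR adjusted p = 0.171). Separation upwards in 1 comparison was seen in 7.46% of all genes with shXPO7_3 and in 14.2% with shXPO7_5.

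With the 2 knockdown groups averaged against vector/4OHT, 0 of 10 were called (0.556% of all genes) and 2 had an unadjusted p under 0.05 (11.9% of all genes). CCNB2 was 0.33 higher (95% confidence interval 0.13 to 0.53, edgeR adjusted p = 0.146) and CCNB1 0.25 higher (95% confidence interval 0.09 to 0.42, edgeR adjusted p = 0.195). For both genes the exact permutation test of 6 against 3 libraries gave p = 0.0119, the smallest it allows, and 4.41% of all genes had all 6 libraries above. CCNA2 had 10.5, 12.6 and 12.7 CPM in shXPO7_3/4OHT and 11.7, 13.05 and 9.91 CPM in shXPO7_5/4OHT, where vector/4OHT reached 10.7 CPM. It overlapped, with a log2 difference of 0.18 (95% confidence interval -0.03 to 0.38, edgeR adjusted p = 0.469). With the offset for GC content and length, CCNA2 was called with each shRNA (log2 fold change 0.24, edgeR adjusted p = 0.0412, and 0.35, edgeR adjusted p = 0.00654) and CCNB2 with shXPO7_5 (0.48, edgeR adjusted p = 0.0342), where that offset called 2.2% of all genes with shXPO7_3 and 3.16% with shXPO7_5. Without shXPO7_5/4OHT replicate A, CCNB1 (0.32, edgeR adjusted p = 0.0382) and CCNB2 (0.44, edgeR adjusted p = 0.0334) were called with shXPO7_5, where 23% of all genes tested were called.

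CDC25C had 2.22, 1.75 and 1.52 CPM in shXPO7_3/4OHT and 2.43, 1.90 and 2.24 CPM in shXPO7_5/4OHT, against 1.31, 1.67 and 1.96 CPM in vector/4OHT, and overlapped in both (log2 fold change 0.13 and 0.40, edgeR adjusted p = 0.999 and 0.232). CDC25A had 11.03, 12.3 and 9.05 CPM and 10.8, 8.003 and 10.2 CPM in the knockdown groups, and CDC25B 37.0, 30.9 and 33.9 CPM and 36.8, 32.4 and 40.4 CPM. Both overlapped with vector/4OHT. CDK2 stayed at 86.9 to 97.2 CPM in the 6 knockdown libraries, with log2 fold changes of 0.01 (95% confidence interval -0.14 to 0.16) and -0.04 (-0.19 to 0.11). CCNE1 stayed at 10.5 to 12.5 CPM, with log2 fold changes of 0.00 (-0.23 to 0.22) and 0.03 (-0.20 to 0.26).

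CDK1 and CCNE2 went different ways in replicates of one group. CDK1 had 5.32, 8.63 and 8.58 CPM (replicates T, A and B) in shXPO7_3/4OHT and 4.92, 8.09 and 4.56 CPM in shXPO7_5/4OHT, while vector/4OHT lay between 6.83 and 7.04 CPM. CCNE2 had 1.23, 2.81 and 2.43 CPM and 0.943, 2.57 and 1.23 CPM, with vector/4OHT between 1.69 and 2.24 CPM. For each gene the low libraries are shXPO7_3/4OHT replicate T and shXPO7_5/4OHT replicates T and B. Their rho of the deviation from the group mean with GC content was positive (0.70, 0.23 and 0.76). That of the other knockdown libraries was negative (-0.61, -0.50 and -0.73). The transcripts of these genes had the lowest GC content of the 10, 37.0% for CDK1 and 36.9% for CCNE2, with 42.1% to 59.3% in the other 8. Their log2 fold changes with shXPO7_5 were -0.24 for CDK1 (95% confidence interval -0.79 to 0.30) and -0.27 for CCNE2 (-1.17 to 0.63), and neither was called in any alternative. With 1 library left out at a time they stayed below 0, from -0.55 to -0.08 for CDK1 and from -0.80 to -0.02 for CCNE2. They were above 0 with the offset for GC content and length (0.08 and 0.05, or 0.07 and 0.01 with the replicate block added). Without the 3 low libraries together they were 0.23 and 0.43. That alternative, chosen after seeing the data, leaves shXPO7_5/4OHT with replicate A alone, which is assumed to vary like the other groups. Replicate A lay above vector/4OHT in both genes, so the choice of libraries fixed the sign. The part of GC content in these values was not tested.

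In the knockdown groups the E cyclin share was 18.8% to 20.4% in shXPO7_3/4OHT and 18.3% to 20.2% in shXPO7_5/4OHT, below the 21.6% to 22.6% of vector/4OHT in every library. The differences were -2.70 and -2.72 percentage points (exact permutation p = 0.1 for each, the smallest possible), and both comparisons use the same vector/4OHT libraries. The CDK2 share overlapped (91.5% to 94.9% and 91.6% to 95.3%), and so did the CDC25B share (67.0% to 74.8% and 71.8% to 74.9%). CCNB1 was 4.32 to 4.54 times CCNB2 per length in shXPO7_5/4OHT, below the 4.64 to 5.01 times of vector/4OHT in every library (log2 difference -0.12, exact permutation p = 0.1), and 4.65 to 4.70 times in shXPO7_3/4OHT, which overlapped.

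Compared directly, the 2 shRNAs differed in 0 of 10 genes by edgeR's adjusted p (0.0131% of all genes called), in 0 at an unadjusted p under 0.05 and in 0 by DESeq2. The estimates for shXPO7_5/4OHT against shXPO7_3/4OHT ran from -0.45 for CCNE2 (95% confidence interval -1.33 to 0.43) to 0.27 for CDC25C (-0.12 to 0.66). Against vector, 9 of 10 genes were called in each knockdown group, 8 lower and CDK2 higher (50.6% of all genes called with shXPO7_3 and 52.3% with shXPO7_5). CCNE1 was not called (edgeR adjusted p = 0.167 and 0.0977) except without vector replicate T (0.0246 and 0.0130) or with the offset for GC content (0.0102 and 0.0265). Of all genes, 46.6% and 50.4% were called without vector replicate T, and 63.9% and 64.2% with the offset. The comparisons with vector share its libraries with that of induction. CCNA2 stood 5.52-fold and 5.72-fold below vector, CCNB2 5.37-fold and 5.08-fold, CCNB1 3.28-fold in both, CDC25C 6.35-fold and 5.26-fold, and CDK1 5.84-fold and 7.52-fold. CDC25B was 2.96-fold and 2.74-fold below. CDC25A had a log2 fold change of -0.85 with shXPO7_3 and was 2.01-fold below vector with shXPO7_5. CDK2 was 1.48-fold and 1.43-fold above.

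The proteins that act on these kinases and phosphatases were taken from a list of 36 genes, of which 34 passed the filter. On induction 24 of 34 were called, 9 higher and 15 lower (median -0.20), beside the 50.9% of all genes tested that were called, 24.8% higher and 26.1% lower. PLK1, the polo kinase that activates CDC25C, had 66.7, 59.9 and 58.5 CPM in vector and 6.12, 7.90 and 7.93 CPM in vector/4OHT (log2 fold change -3.07, edgeR adjusted p = 1.37e-09). CDC20 and UBE2C, which take cyclin B to destruction through the APC/C, fell by 2.80 and 2.79 on the log2 scale, and FBXO5, an inhibitor of the APC/C, fell by 2.005. AURKA fell by 0.97 and BORA, with which it activates PLK1, by 1.49.

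The brakes on the kinases fell and rose. PKMYT1 fell by 2.60 on the log2 scale, from 15.5, 14.6 and 13.7 CPM to 2.24, 2.16 and 2.74 CPM, and WEE1 fell by 0.80, from 40.9, 42.9 and 42.8 CPM to 23.6, 25.7 and 23.8 CPM. CDKN1A, the inhibitor p21, rose from 543, 496 and 452 CPM to 1101, 1116 and 1194 CPM (log2 fold change 1.19, edgeR adjusted p = 5.06e-07), while CDKN1B fell by 1.35 and CDKN1C by 2.46. The small kinase subunits CKS1B and CKS2 fell by 1.47 and 0.62. Of the 4 tested checkpoint kinases and 14-3-3 proteins that hold CDC25 in check, 0 were called by edgeR and 1, YWHAB, had an unadjusted p under 0.05.

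CDK7, CCNH and MNAT1, the kinase complex that activates CDK1 and CDK2 directly, rose by 0.52, 0.46 and 0.46 on the log2 scale. CCNH was not called under 6 and MNAT1 under 4 of 16 alternatives, over which 24.6% to 63.7% of all genes were called on induction. The call of CCNH was lost without vector replicate T or A or any vector/4OHT library (edgeR adjusted p of 0.0682 to 0.124), and that of MNAT1 without vector replicate T or A or vector/4OHT replicate A or B (0.0555 to 0.0808). In the Greatwall pathway, which protects mitotic phosphorylation from PP2A-B55, the kinase MASTL fell by 1.29 and its substrate ENSA rose by 0.64. The B55 subunits PPP2R2A and PPP2R2D rose by 0.70 and 0.23, the latter called in 9 of 16 alternatives and lost without vector replicate A or C or vector/4OHT replicate T or B (edgeR adjusted p of 0.0617 to 0.0957). BTRC, a ubiquitin ligase subunit that marks CDC25A and WEE1 for destruction, rose by 0.83, SKP2 fell by 1.12 and CCNF, which is itself a cyclin-like ligase subunit, by 1.39. CCNA1, the germline cyclin A, was called higher (log2 fold change 2.75) at very low levels, 0.0486 to 0.0618 CPM in vector and 0.354 to 0.424 CPM in vector/4OHT.

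**Figure D4:**
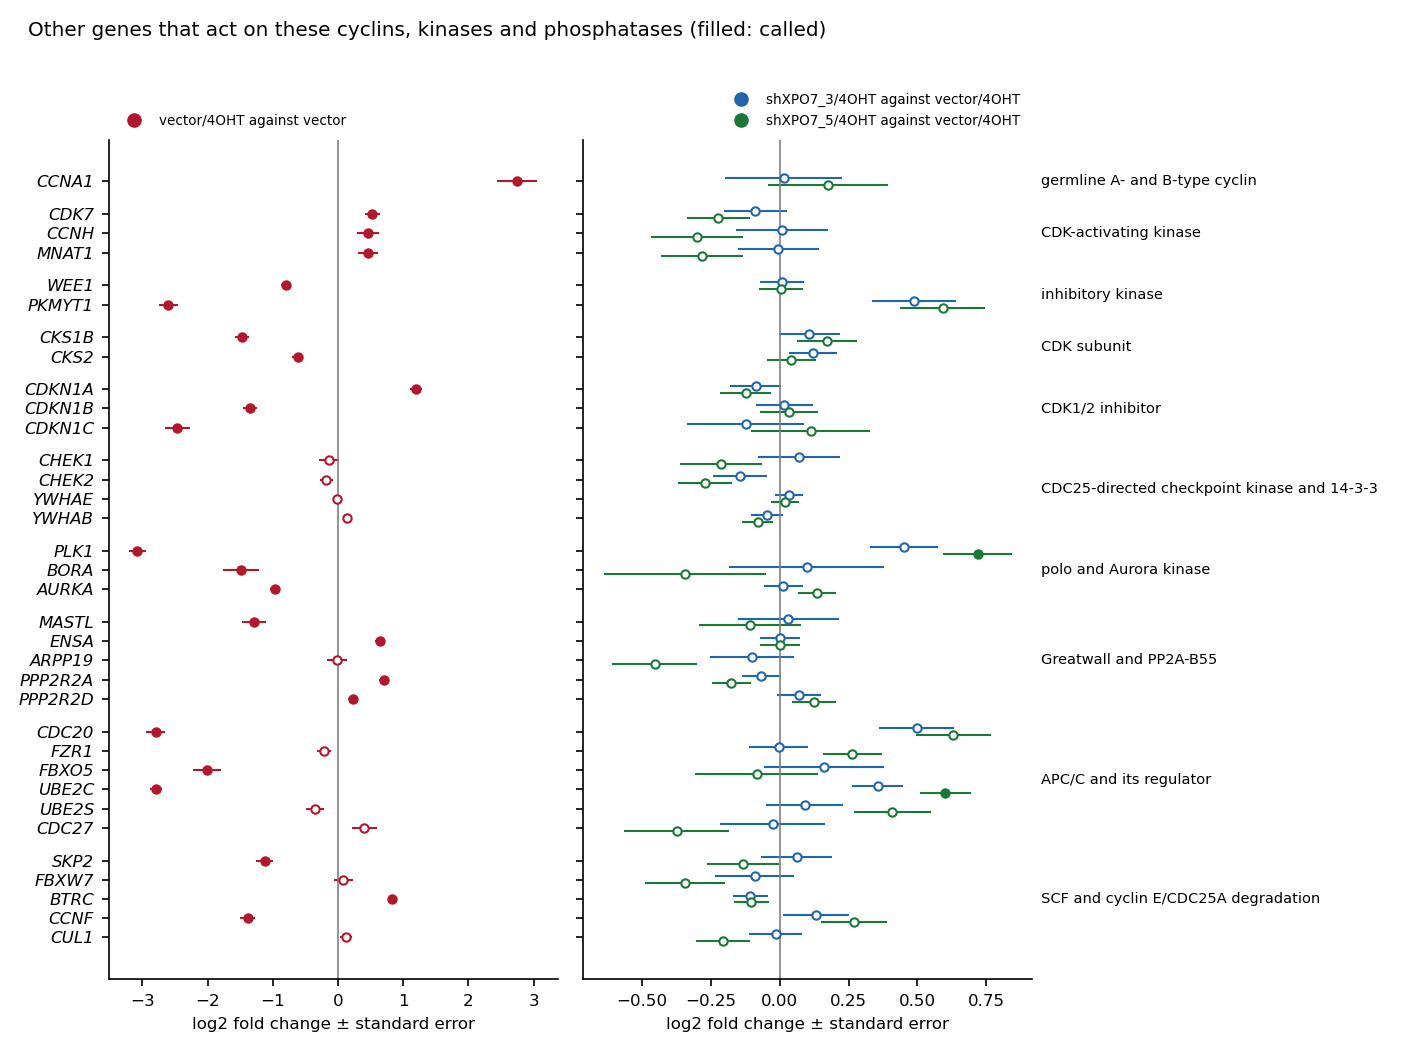
Log2 fold change with its standard error (x axis) of the 34 tested genes that act on these cyclins, kinases and phosphatases, grouped by role, for vector/4OHT against vector (left) and for each shRNA against vector/4OHT (right, on a finer scale); filled points passed an adjusted p of 0.05. On the left PLK1 is lowest at -3.07 and CCNA1 highest at 2.75, and on the right only PLK1 and UBE2C with shXPO7_5 are filled.

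With shXPO7_3, 0 of the 34 were called by edgeR and 4 had an unadjusted p under 0.05, beside 0.124% and 6.41% of all genes. With shXPO7_5, 2 were called and 11 had an unadjusted p under 0.05, beside 0.589% and 21.6% of all genes. PLK1 had 13.1, 10.9 and 12.2 CPM in shXPO7_5/4OHT (log2 fold change 0.72, edgeR adjusted p = 0.0265) and UBE2C had 10.7, 9.94 and 10.6 CPM, against 6.97, 6.66 and 6.92 CPM in vector/4OHT (0.60, edgeR adjusted p = 0.0174). With shXPO7_3, PLK1 had 11.2, 10.1 and 8.83 CPM and UBE2C 9.17, 9.36 and 7.89 CPM, all above vector/4OHT, as in 7.46% of all genes. Neither was called (edgeR adjusted p = 0.294 and 0.248), except with the offset for GC content and length (0.43, edgeR adjusted p = 0.0421, and 0.35, edgeR adjusted p = 0.0064). That offset called 2.2% of all genes with shXPO7_3. The shXPO7_5 calls of PLK1 and UBE2C were lost without any vector/4OHT library and without shXPO7_5/4OHT replicate T or B, where 0.0127% to 0.0901% of all genes were called. The edgeR adjusted p there was 0.0781 to 0.128 for PLK1 and 0.0625 to 0.0971 for UBE2C. Each was called in 9 of 16 alternatives. PKMYT1 (0.49 and 0.59) and CDC20 (0.50 and 0.63) were above vector/4OHT in every knockdown library, as were 4.41% of all genes, and were not called. With shXPO7_5, CDC20 was called in 5 of 16 alternatives, among them DESeq2 (adjusted p = 0.0026) and the offset for GC content and length (edgeR adjusted p = 0.0077). PKMYT1 was called in 2, DESeq2 (adjusted p = 0.0355) and without shXPO7_5/4OHT replicate A (edgeR adjusted p = 0.0237). Of all genes, 2.83% were called with shXPO7_5 by DESeq2, 3.16% with the offset and 23% without replicate A. With shXPO7_3 CDC20 was called in 2 of 16, both with that offset, where 2.2% of all genes were called, or 2.5% with the replicate block added. CDKN1A (-0.09 and -0.12) was not called, but with the offset it was called lower with shXPO7_5 (-0.29, edgeR adjusted p = 0.00073). WEE1 (0.01 and 0.00), CKS1B (0.11 and 0.17) and CKS2 (0.12 and 0.04) were not called.

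To place the 10 genes among others, the genes whose pattern over the 12 libraries was most like each were listed, by the root mean square difference of centred log2 CPM over 11654 genes. These distances are a description, since the libraries share their groups. CCNA2 lay closest to BUB1 (0.093), a spindle checkpoint kinase, CCNB2 to NCAPH (0.093), a condensin subunit, CDK1 to NDC80 (0.099), a kinetochore protein, and CDC25C to TCF19 (0.108). CCNE2 lay closest to BRIP1 (0.133), a helicase of DNA repair, and CDC25B to ATP8B3 (0.053), with MCM3, a replication helicase subunit, second (0.063). CCNB1 lay closest to NREP (0.057) and then TPX2 (0.074), a spindle protein. CCNE1 lay closest to MALSU1 (0.047), CDK2 to ELOA (0.035) and CDC25A to NNAT (0.089). Second for the remaining genes were SHCBP1 for CCNA2 (0.124), CDCA8 for CCNB2 (0.095), NCAPG for CDK1 (0.125) and TMEM200B for CDC25C (0.121). For CCNE2 it was LRRCC1 (0.140), for CCNE1 IFNGR2 (0.055), for CDK2 YWHAG (0.039) and for CDC25A KAZN (0.115). Within the family the nearest were CCNB2 and CDC25C (0.115), CCNE1 and CDK2 (0.167), CCNB1 and CDC25B (0.168), and CCNA2 and CCNB2 (0.183).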

How the data were processed

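RNA from 12 libraries of IMR90 ER:RAS cells was sequenced after Illumina stranded mRNA library preparation. The values are raw read counts for each gene, deposited as 1 table of all libraries. Tools named in the submitters' processing notes are TopHat2 2.0.11, featureCounts 1.18.0 and CASAVA 1.8.4, with hg19 and GRCh37 as builds; annotation and strand setting: not given in the sources used here. Groups came from the sample labels; the labels' shXPO7_5 is taken as the second shRNA of the study.

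In R 4.3.3, genes were kept by filterByExpr (15284 of 62069), scaled by TMM and fitted with edgeR 4.0.16's quasi-likelihood model on all 12 libraries and 4 groups. Benjamini-Hochberg adjustment ran over all genes tested, with a threshold of 0.05. Totals of 28534141 to 60397769 counts per library set the precision, and 3 libraries per group cannot give an exact permutation p under 0.1. Replicates of a group were further apart than sampling noise, so none was counted as a repeat. The 92 ERCC entries were 0 throughout and left out. Levels per kb used merged exon lengths from GENCODE release 29, matched by Ensembl identifier, since that annotation is on GRCh38 and the counts are on GRCh37. Shares and ratios between genes used these levels, and ratios were added after the values were seen.

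All 10 members are named in every comparison, with CDKN1A, WEE1, PKMYT1, CKS1B, CKS2, PLK1 and CDC20, the called list genes with the 3 largest changes each way, and the 3 genes most like each member (mean log2 CPM of at least 1), of which the text gives the first 2. The other list genes were named by role after their values were seen. The members and lists were chosen with earlier results of these data known. Scripts were tested on simulated data. Alternatives were RLE and upper-quartile factors, 2 other filters, DESeq2 1.42.0, a minimum change of 1 on the log2 scale, the replicate letter as a block, an offset for GC content and length (spline with 5 degrees of freedom), only the groups compared, other lengths for the shares, and each library left out. Leaving out 3 knockdown libraries together was added after the data were seen.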

Additional observations from a re-analysis of the deposited data

How the results depend on the processing

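The 8 falls and the rise of CDK2 on induction were called in 16 of 16 alternatives, over which 24.6% to 63.7% of all genes were called. With a change of at least 1 required 8 of the 9 remained. With the GC content and length offset, the members called were 1 with shXPO7_3, 2 with shXPO7_5 and 2 with both shRNAs, beside 337, 483 and 612 genes of the whole table, and 3 with shXPO7_5 and 3 with both shRNAs when the replicate block was added, beside 912 and 773; the cause was not tested. The replicate letters paired the libraries only in part. Correlations of deviations were over 0.1 in 9 of 15 same-letter pairs (from -0.44 to 0.71, median 0.16), and their median was -0.16 between different letters. The replicate block alone left the members called at 9 on induction, beside 52.3% of all genes, and 0 with each shRNA. Letter C occurs in vector only, so the block fits that library exactly. The blocked test of induction therefore rests on vector replicates T and A. With that block, 149 in place of 90 genes of the whole table were called with shXPO7_5. With each library left out, the members called ran from 9 to 10 on induction, where 43% to 47.2% of all genes were called. They were 0 with shXPO7_3 and both shRNAs, and ran from 0 to 2 with shXPO7_5. The 2 came without shXPO7_5/4OHT replicate A, where 3634 genes of the whole table were called. Without the 3 knockdown libraries richest in GC-rich transcripts, an alternative chosen after seeing the data, members called were 9 on induction and 0 with each shRNA, and 1 gene of the whole table was called with shXPO7_5, whose lone library there is assumed to vary like the other groups. The E cyclin share was 14.2 points higher on induction without division by length and 16.01 with the longest transcript, and the CDC25B share moved by -0.55 and 2.12 points. Genes of the whole table called ranged over all alternatives from 1 to 382 with shXPO7_3 (19 as reported; DESeq2 82), from 1 to 3634 with shXPO7_5 (90; DESeq2 433), from 1 to 773 with both shRNAs (85; DESeq2 247) and from 0 to 50 between the shRNAs (2; DESeq2 27). Upper-quartile factors moved the median of all genes on induction to -0.105 and the higher share of calls from 48.8% to 38.3%, with the members' directions as before. At this depth and number of libraries the intervals of the CCNB2 change were 0.07 to 0.52 with shXPO7_3 and 0.15 to 0.60 with shXPO7_5.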
